A study of Homo sapiens with 17 samples.

Results

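The early vitamin C comparison set 4 of the 17 libraries of the series against each other: 2 from cultures of endothelial cells derived with vitamin C, at 24 and 36 h after re-plating, and 2 from cultures of cells derived without it, at the same hours. The libraries were chosen by their titles, and RNA was read by sequencing. All cells derive from H1, a line of human embryonic stem cells, and had been turned into endothelial cells that carry an active eGFP reporter of GATA2, a zinc finger factor needed for blood stem cells to form. The groups were VC+ 24 h, VC+ 36 h, VC- 24 h and VC- 36 h, with 1 library each, and the labels describe each one as a mixture of endothelial and haematopoietic cells. The labels do not say whether vitamin C was also in the medium after re-plating, nor whether the libraries came from separate cultures. The p-values below rest on how the vitamin C difference varied between hours, with the spread shared across genes. They do not measure how cultures vary, and the variation between hours may be technical. Libraries of 0, 48 and 60 h, and of suspended and adherent cells at 60 h with vitamin C, are used only to place the early differences.

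In the embryo, blood stem cells arise from arterial endothelium by the endothelial-to-haematopoietic transition, in which RUNX1 and its partner transcription factors switch on blood genes while endothelial genes are shut down. Vitamin C (ascorbate) is a cofactor of iron-dependent dioxygenases, among them enzymes that demethylate histones, the TET enzymes that oxidise methylated DNA, and the hydroxylases that mature collagen. The comparison asks which genes already differed between the vitamin C conditions in the first hours after re-plating.

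The 4 libraries held 6214675 (VC+ 24 h), 8254379 (VC+ 36 h), 7653510 (VC- 24 h) and 8794604 (VC- 36 h) counts, and levels are given as CPM, counts scaled to a library total of 1e6. A single read was worth 0.114 to 0.161 CPM, and 3 reads 0.341 to 0.483 CPM. The mitochondrial share of counts was 4.15% to 4.63%. CDH5, the junction protein that defines endothelium, stood at 1103 and 1143 CPM in VC+ at 24 and 36 h and at 896 and 1076 CPM in VC-, so all 4 libraries were rich in endothelial RNA. PTPRC, which encodes the pan-leukocyte protein CD45, had 0 and 2 counts in VC+ and 0 and 0 in VC-. Where 2 values are given for a condition below, the first is the library of 24 h and the second that of 36 h.

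Most genes did not pass the test for a vitamin C difference. edgeR's quasi-likelihood test, with the time point as a block, called 752 of 14874 genes at a Benjamini-Hochberg adjusted p under 0.05, or 5.06% of the genes tested. Of these, 310 (2.08%) were higher and 442 (2.97%) lower with vitamin C, and 97 and 147 of them changed at least 2-fold. The shares of 2.08% and 2.97% are the background for each count of list members called at 24 and 36 h below. The median log2 difference over all genes tested was -0.0012. Log2 differences below are VC+ minus VC- with their standard error (SE), and an adjusted p is always that of the edgeR test over all genes tested. A gene is said to rise or fall when it was called higher or lower with vitamin C, which is not a change over time. The fit has 1 residual degree of freedom and borrows its spread across genes. Without the block, 21 genes were called higher and 27 lower, and DESeq2 called 225, all among the 752. With the spread taken from 8 libraries 502 genes were called, and leaving out the VC+ library of 24 h or of 36 h, or the VC- library of 24 h or of 36 h, from that fit left 146, 120, 112 and 123.

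**Figure D1:**
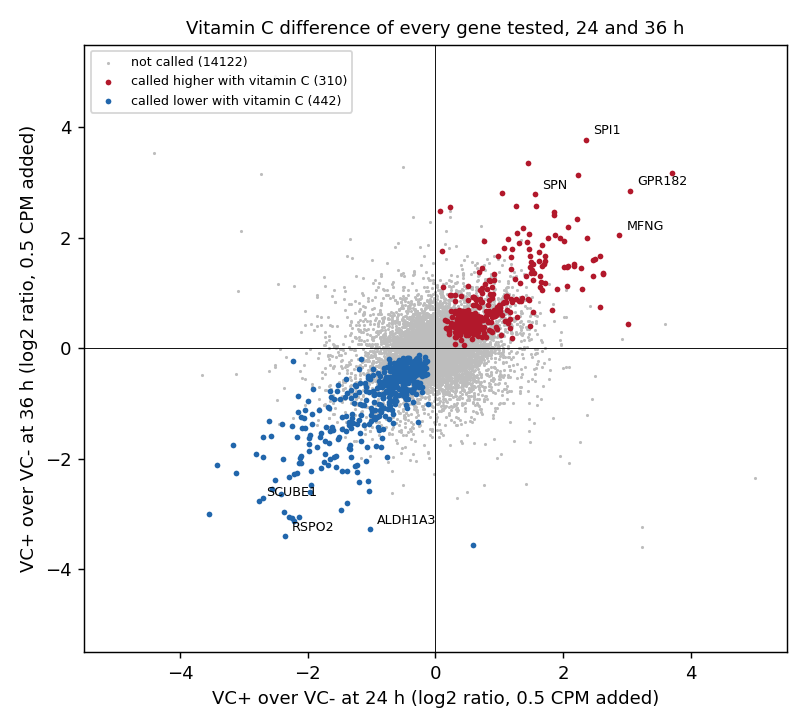
Log2 ratio of VC+ over VC- (0.5 CPM added) for each of the 14874 genes tested, at 24 h on the horizontal and at 36 h on the vertical axis, with 1 library per condition and hour. Red points are the 310 genes called higher and blue points the 442 called lower, and every called gene but 1 had the same sign at both hours. The test takes its spread from the gap between the hours, so it favours genes whose signs agree.

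Blood transcription factors were higher with vitamin C for 8 of 25 tested members and lower for none, against 2.08% and 2.97% of all genes, and the list's median log2 difference was 0.34. DESeq2 called 2 of them. SPI1 (ENSG00000066336, GRCh38 chromosome 11, 47354860 to 47378576, minus strand), which encodes PU.1, a master regulator of myeloid and lymphoid cells, stood at 6.12 and 11.0 CPM in VC+ and at 0.784 and 0.341 CPM in VC-. Both VC+ libraries lay above both VC- libraries, where the gene rested on 6 and 3 reads. The log2 difference was 3.89 ± 0.55 (adjusted p = 0.000417). GATA1, the master regulator of red cells and platelets, stood at 2.25 and 5.45 CPM in VC+ and at 0.261 and 0.569 CPM in VC- (3.15 ± 0.62, adjusted p = 0.00582). GATA1 rested on 2 and 5 reads in VC-. The separation of both genes describes the same libraries that gave the calls and is no separate support.

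Among core factors of the transition, RUNX1, LMO2 and TAL1 were higher with vitamin C, while GATA2 and GFI1 were not called. RUNX1, which drives it, stood at 155 and 153 CPM in VC+ and at 119 and 120 CPM in VC- (0.36 ± 0.09, adjusted p = 0.0314). LMO2, a bridging protein of the blood stem cell factor complex, stood at 192 and 188 CPM in VC+ and at 147 and 122 CPM in VC- (0.50 ± 0.09, adjusted p = 0.00342). Its DNA-binding partner TAL1 had a log2 difference of 0.34 ± 0.09 (adjusted p = 0.0436). In all 3 genes the VC+ libraries lay above the VC- libraries without overlap. This describes the same libraries that gave the calls and is no separate support. MYB, a factor of blood progenitors, rose by 0.47 ± 0.11 (adjusted p = 0.0237), the repressor GFI1B by 0.60 ± 0.12 (adjusted p = 0.00888) and the corepressor CBFA2T3 by 0.99 ± 0.21 (adjusted p = 0.00954). GATA2, whose reporter marks the cells, stood at 118 and 162 CPM in VC+ and at 119 and 160 CPM in VC-, with a log2 difference of -0.01 ± 0.09 (adjusted p = 0.979). GFI1, a repressor of endothelial genes in the transition, was not called at -0.50 ± 0.20 (adjusted p = 0.206).

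Genes of leukocytes were higher with vitamin C for 5 of 17 tested members and lower for 1, against 2.08% and 2.97% of all genes. The list's median was 0.37. VAV1, a signalling protein of blood cells, stood at 36.2 and 36.7 CPM in VC+ and at 15.7 and 13.3 CPM in VC- (1.33 ± 0.15, adjusted p = 6.64e-05). SPN (CD43), a sialoglycoprotein of white cells, stood at 5.95 and 17.2 CPM in VC+ and at 1.70 and 2.05 CPM in VC- (2.54 ± 0.40, adjusted p = 0.000977). The phosphatases INPP5D (1.07 ± 0.14) and PTPN6 (1.59 ± 0.27) and the actin bundler LCP1 (1.09 ± 0.21) rose as well, at adjusted p values of 0.000165, 0.00167 and 0.00494. The member that fell was ARHGDIB, a cytoskeletal regulator that endothelium also makes, at 159 and 241 CPM in VC+ and at 205 and 287 CPM in VC- (-0.31 ± 0.08, adjusted p = 0.0289), a call that was lost with DESeq2 and with the spread of 8 libraries.

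Of 10 megakaryocyte and platelet genes tested, 4 were higher and none lower, and DESeq2 called 1. ITGA2B, the platelet integrin that also marks the first blood progenitors, stood at 18.7 and 41.0 CPM in VC+ and at 7.45 and 6.48 CPM in VC- (2.05 ± 0.25, adjusted p = 0.000128). Its partner ITGB3 rose by 1.58 ± 0.39 and the platelet receptor GP1BA by 1.52 ± 0.31, and THBS1, which endothelium also secretes, rose by 0.37 ± 0.10. The transferrin receptor TFRC was the only one of 4 tested erythroid genes to be called (0.36 ± 0.09, adjusted p = 0.0395), and it was not called with DESeq2 or with the spread of 8 libraries. Of 5 tested myeloid genes, MRC1 (0.75 ± 0.11, adjusted p = 0.000472) and CD33 (1.20 ± 0.33, adjusted p = 0.0462) were higher, of which DESeq2 called 1. MRC1, a mannose receptor, is also made by some endothelium, and at 60 h it stood at 26.3 CPM in suspended cells and at 205 CPM in adherent cells.

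In bulk RNA, fewer cells of a type and less RNA per cell cannot be told apart, and the same holds for more. The summed level of the 24 leukocyte genes was 661 and 833 CPM in VC+ and 646 and 753 CPM in VC-, against 3096 CPM in suspended cells and 862 CPM in adherent cells at 60 h. The 15 megakaryocyte genes summed to 477 and 442 CPM in VC+ and to 374 and 353 CPM in VC-, against 1689 CPM in suspended cells. THBS1, which endothelium also secretes, held 266 and 168 CPM of these sums in VC+ and 178 and 149 CPM in VC-. Of the 24 leukocyte genes, 4 and 3 were at 0 in the VC+ libraries and 4 in each VC- library. The haemoglobin HBG2 had no count in either library of 24 h. SPN and ITGA2B reached 264 and 774 CPM in suspended cells, so their early levels in VC+ were a small part of those in floating blood cells. The part of cell composition in the early differences was not tested.

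**Figure D2:**
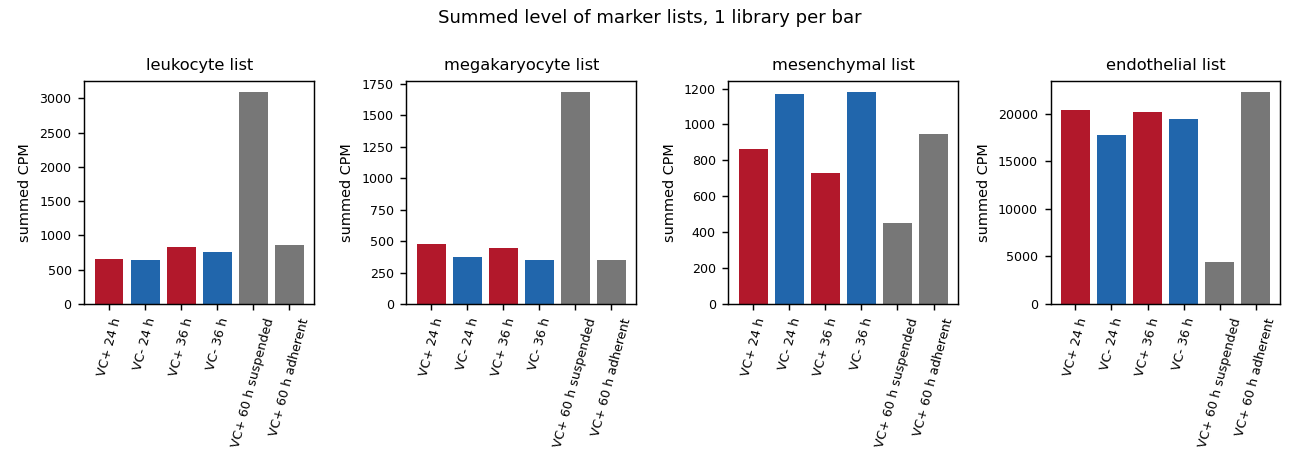
Summed CPM of 4 marker lists in the VC+ (red) and VC- (blue) libraries of 24 and 36 h and, in grey, in suspended and adherent VC+ cells at 60 h, with 1 library per bar. The leukocyte and megakaryocyte sums at 24 and 36 h lie at or below 833 CPM, while suspended cells hold 3096 and 1689 CPM, and the mesenchymal sum is lower in VC+ than in VC- at both hours. THBS1 alone holds 266 and 168 CPM of the megakaryocyte sum in VC+ and 178 and 149 CPM in VC-.

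Across all called genes the split between suspended and adherent cells was uneven. Of the 310 genes higher with vitamin C, 28.1% had a level in suspended cells at 60 h at least 2-fold above that in adherent ones, against 10.5% of the genes not called. A larger share of the same 310 genes, 44.5%, was at least 2-fold higher in adherent cells, against 13.7% of the genes not called. Genes lower with vitamin C were at least 2-fold higher in suspended cells for 5.43% and in adherent cells for 55.9%. The early rises thus held genes of both compartments, and the early falls mostly genes of adherent cells.

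Among endothelial genes 9 of 26 tested members were higher and 2 lower, and the list's median was 0.084. With DESeq2 5 were higher and 0 lower, and with the spread of 8 libraries 7 were higher and 0 lower. CD34, a surface sialomucin of endothelium and of blood progenitors, stood at 1625 and 1420 CPM in VC+ and at 921 and 824 CPM in VC- (0.80 ± 0.05, adjusted p = 2.82e-07). The tight junction protein CLDN5 stood at 34.9 and 64.2 CPM in VC+ and at 17.0 and 38.2 CPM in VC- (0.86 ± 0.13, adjusted p = 0.000558). The CLDN5 ranges overlap, because the gene was higher at 36 h than at 24 h in both conditions, while within each hour VC+ was higher. The TGF-beta co-receptor ENG (0.46 ± 0.07), the peptide receptor CALCRL (0.56 ± 0.08), the fenestral diaphragm protein PLVAP (0.44 ± 0.08), the sialomucins PODXL (0.37 ± 0.08) and EMCN (0.77 ± 0.17), the receptor TIE1 (0.37 ± 0.07) and the VEGF receptor KDR (0.19 ± 0.05) rose too. The VEGF receptor FLT1 (-0.20 ± 0.04) and the nitric oxide synthase NOS3 (-0.36 ± 0.09) fell in the fit as reported, and neither fall was called in those other fits. CDH5 itself was not called (0.19 ± 0.06, adjusted p = 0.0927), nor was PECAM1 (-0.09 ± 0.06, adjusted p = 0.482).

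Arterial and venous genes gave calls in both directions, against 2.08% higher and 2.97% lower among all genes tested. Of 15 arterial genes, JAG2, a Notch ligand, and SOX17, an arterial transcription factor, were higher and GJA4, an arterial gap junction protein, lower, and DESeq2 called 1 higher and 1 lower. SOX17 stood at 112 and 119 CPM in VC+ and at 78.3 and 85.5 CPM in VC- (0.49 ± 0.10, adjusted p = 0.00755). GJA4 stood at 187 and 217 CPM in VC+ and at 224 and 343 CPM in VC- (-0.47 ± 0.09, adjusted p = 0.00501). Of 9 venous and lymphatic genes, STAB1, a scavenger receptor, was higher (0.58 ± 0.09) and NR2F2, the regulator of venous identity, lower, at 4.02 and 4.73 CPM in VC+ and at 10.8 and 13.6 CPM in VC- (-1.49 ± 0.29, adjusted p = 0.00615), and DESeq2 called 0 of the 9.

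In the Notch pathway, in which cells signal to neighbours through membrane ligands and receptors, MFNG had the largest change. MFNG (ENSG00000100060, GRCh38 chromosome 22, 37469063 to 37486401, minus strand) encodes a fringe enzyme that adds sugars to Notch receptors and alters which ligands they answer. It stood at 36.9 and 40.1 CPM in VC+ and at 4.57 and 9.32 CPM in VC- (2.47 ± 0.20, adjusted p = 2.38e-06). The receptor NOTCH2 fell, at 71.9 and 50.0 CPM in VC+ and at 115 and 109 CPM in VC- (-0.90 ± 0.12, adjusted p = 0.000248), whereas the ligands JAG1 (-0.33 ± 0.10, adjusted p = 0.0649) and DLL4 (0.23 ± 0.07, adjusted p = 0.0727) were not called. In all, 2 of 17 pathway genes were higher and 1 lower.

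SELE and MADCAM1, adhesion molecules of endothelium, rose. SELE (ENSG00000007908, GRCh38 chromosome 1, 169722641 to 169764705, minus strand), the E-selectin that catches rolling leukocytes, stood at 104 and 149 CPM in VC+ and at 32.1 and 40.6 CPM in VC- (1.78 ± 0.11, adjusted p = 2.82e-07). MADCAM1, an addressin for lymphocytes, stood at 11.9 and 9.81 CPM in VC+ and at 1.57 and 2.73 CPM in VC- (2.31 ± 0.38, adjusted p = 0.00154). Both are targets of NF-kB, but of 15 tested genes of that pathway and of inflammation they were the only members called, and the list's median was 0.0021. ICAM1, another NF-kB target on endothelium, was not called at -0.70 ± 0.21 (adjusted p = 0.0738).

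Genes of the interferon response, which cells switch on against viruses, were higher with vitamin C for 8 of 24 tested members and lower for none, with a median of 0.42. DESeq2 called 3 of them. IFIT1 (ENSG00000185745, GRCh38 chromosome 10, 89392546 to 89406486, plus strand), which binds viral RNA, stood at 34.0 and 59.2 CPM in VC+ and at 6.93 and 11.3 CPM in VC- (2.35 ± 0.15, adjusted p = 2.82e-07). ISG15, a ubiquitin-like modifier, stood at 39.7 and 68.8 CPM in VC+ and at 11.9 and 23.7 CPM in VC- (1.62 ± 0.13, adjusted p = 2.38e-06). IFIT2 stood at 8.05 and 11.9 CPM in VC+ and at 1.31 and 0.910 CPM in VC- (3.15 ± 0.44, adjusted p = 0.000416). For all 3 genes VC+ lay above VC- at both hours without overlap, in the same libraries that gave the calls.

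The other called members were lower in abundance. IFI6 had 32 reads in VC+ and 3 in VC-, a ratio of 12.1 after scaling for depth, with a 95% interval of 3.79 to 61.9 that covers counting error only (adjusted p = 0.0122). The antiviral GTPase MX1 (2.86 ± 0.63), the RNA sensor IFIH1 (3.24 ± 0.78), the RNA-activated enzyme OAS3 (1.48 ± 0.38) and BST2, which tethers budding viruses (0.91 ± 0.23), were called at adjusted p values of 0.0135, 0.0237, 0.0354 and 0.0321. IFIH1 had no read in VC- at 36 h. 2 transcription factors that carry the interferon signal were not called: STAT2 (-0.10 ± 0.11) and IRF9 (0.41 ± 0.45) had adjusted p values of 0.719 and 0.740.

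The promoters of these genes are shown because interferon genes are known for a shared element, to which a complex with STAT2 and IRF9 binds. The letters GAAA, any 2 bases and GAAA again, searched on both strands in the 250 bases before the RefSeq start (GRCh38.p14) and with overlapping matches counted, occur before at least 1 listed start in 7 of the 7 called genes that have an entry and in 7 of the 13 with an entry that were tested and not called, against 3.71% of 27305 genes counted in the same way and 3.02% of 35116 promoters. MX1 has 3 listed starts, of which 1 holds a match. The lines below give bases 160 to 81 before the start, on the strand of the gene and 5′ to 3′, with the matches in capitals (a match in T letters lies on the opposite strand). They lie at chr10:89392463-89392542 (IFIT1, plus strand), chr1:1013337-1013416 (ISG15, plus strand), chr1:27672273-27672352 (IFI6, minus strand) and chr19:17405711-17405790 (BST2, minus strand).
IFIT1: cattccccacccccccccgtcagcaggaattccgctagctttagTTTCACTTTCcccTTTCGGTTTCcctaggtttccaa
ISG15: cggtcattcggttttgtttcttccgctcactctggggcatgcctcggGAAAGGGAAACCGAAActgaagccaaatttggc
IFI6: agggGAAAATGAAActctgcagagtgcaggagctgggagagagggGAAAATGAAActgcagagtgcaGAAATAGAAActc
BST2: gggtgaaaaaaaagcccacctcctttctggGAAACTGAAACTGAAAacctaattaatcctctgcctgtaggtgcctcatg
IFIT1, ISG15 and BST2 hold 2 matches each and IFI6 holds 3, and in ISG15 and BST2 the matches overlap. A match is a description of the sequence and says nothing of whether a factor bound there.

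The keratins KRT8, KRT18 and KRT19 fell. KRT8 (ENSG00000170421, GRCh38 chromosome 12, 52897187 to 52949954, minus strand), an intermediate filament of simple epithelia that other cells also make, stood at 241 and 247 CPM in VC+ and at 597 and 564 CPM in VC- (-1.25 ± 0.07, adjusted p = 9.96e-08), the smallest p of all genes. Its filament partner KRT18 stood at 250 and 264 CPM in VC+ and at 530 and 454 CPM in VC- (-0.94 ± 0.08, adjusted p = 2.75e-06). The annotated spans of these 2 genes overlap at their ends on opposite strands, and the strand of the counting is not given, so some reads may be shared. KRT19, on chromosome 17, stood at 13.0 and 9.21 CPM in VC+ and at 42.2 and 38.4 CPM in VC- (-1.88 ± 0.16, adjusted p = 3.16e-06). The other 2 tested members of the epithelial list, EPCAM (1.27 ± 0.55, adjusted p = 0.254) and CLDN6 (-0.03 ± 0.65, adjusted p = 0.991), were not called.

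HOX genes, which set position along the body axis, were lower with vitamin C for 8 of 13 tested members and higher for none, with a median of -0.63. DESeq2 called 4 of them. The genes of the HOXA cluster on chromosome 7 fell furthest. HOXA9, a gene of blood progenitors, stood at 0.483 and 0.606 CPM in VC+ and at 4.57 and 8.07 CPM in VC- (-3.51 ± 0.54, adjusted p = 0.000896). HOXA10 (-3.21 ± 0.65, adjusted p = 0.00739) and HOXA11 (-3.16 ± 0.56, adjusted p = 0.00256) stood at no more than 0.848 CPM in VC+ and between 2.96 and 6.48 CPM in VC-. HOXA9 and HOXA10 have overlapping annotated spans. The HOXB genes on chromosome 17 fell by less from higher levels. HOXB9 stood at 144 and 143 CPM in VC+ and at 202 and 241 CPM in VC- (-0.63 ± 0.09, adjusted p = 0.000482), and HOXB8 (-0.79 ± 0.12), HOXB3 (-0.60 ± 0.13) and HOXB6 (-0.44 ± 0.11) were called as well. HOXC6 was the eighth (-2.11 ± 0.57, adjusted p = 0.0437).

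Mesenchymal genes were lower for 5 of 14 tested members and higher for none, with a median of -0.48. DESeq2 called 2 of them. COL3A1, a fibrillar collagen, stood at 182 and 154 CPM in VC+ and at 340 and 411 CPM in VC- (-1.17 ± 0.10, adjusted p = 3.16e-06). COL1A1, the main fibrillar collagen, stood at 140 and 116 CPM in VC+ and at 192 and 205 CPM in VC- (-0.65 ± 0.10, adjusted p = 0.000758). The muscle proteins TAGLN (-0.53 ± 0.11) and PDLIM3 (-2.06 ± 0.52) and the proteoglycan LUM (-1.12 ± 0.31) fell too. The 18 listed mesenchymal genes summed to 863 and 729 CPM in VC+ and to 1171 and 1183 CPM in VC-, so their summed level was lower in VC+ at both hours, with 2 and 1 of the genes at 0 in VC+ and 1 and 1 in VC-. The part of mesenchymal cell number in these falls was not tested.

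TGF-beta signalling, which drives endothelial cells toward a mesenchymal state, showed falls in 8 of 27 tested genes and a rise in 1. DESeq2 called 2 lower and 0 higher, and the spread of 8 libraries gave 4 lower and 1 higher. LTBP2, a matrix protein of the LTBP family, stood at 9.49 and 13.1 CPM in VC+ and at 21.3 and 34.8 CPM in VC- (-1.31 ± 0.17, adjusted p = 0.000253). LTBP1, which stores latent TGF-beta in the matrix, went the other way, at 48.6 and 54.5 CPM in VC+ and at 24.6 and 35.4 CPM in VC- (0.78 ± 0.13, adjusted p = 0.00121). The targets TGFBI (-0.79 ± 0.15), ID1 (-0.33 ± 0.07) and ID3 (-0.31 ± 0.08), the receptor TGFBR2 (-0.29 ± 0.08), fibronectin FN1 (-0.46 ± 0.07) and vimentin VIM (-0.32 ± 0.05) fell.

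Of 31 tested collagen and matrix genes, 11 were lower and 2 higher, and DESeq2 called 5 lower and 1 higher. The 2 that rose were the collagen IV chains COL4A1, at 2407 and 2364 CPM in VC+ and at 1900 and 1868 CPM in VC- (0.34 ± 0.05, adjusted p = 0.000442), and COL4A2 (0.25 ± 0.05, adjusted p = 0.00631). The annotated spans of these genes overlap at their starts on opposite strands of chromosome 13, so some reads may be shared. The crosslinking enzyme LOX stood at 8.37 and 9.57 CPM in VC+ and at 25.0 and 31.0 CPM in VC- (-1.65 ± 0.18, adjusted p = 4.80e-05), and its relatives LOXL1 (-0.80 ± 0.13) and LOXL2 (-0.31 ± 0.08) fell with it. COL15A1 (-0.77 ± 0.11), COL4A5 (-0.55 ± 0.11), COL6A1 (-0.46 ± 0.10), COL5A1 (-0.40 ± 0.07) and COL18A1 (-0.32 ± 0.07) fell, COL4A5, COL15A1 and COL18A1 being basement membrane collagens too, as did P4HA2 (-0.55 ± 0.14), a subunit of the ascorbate-dependent enzyme that hydroxylates collagen proline.

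**Figure D3:**
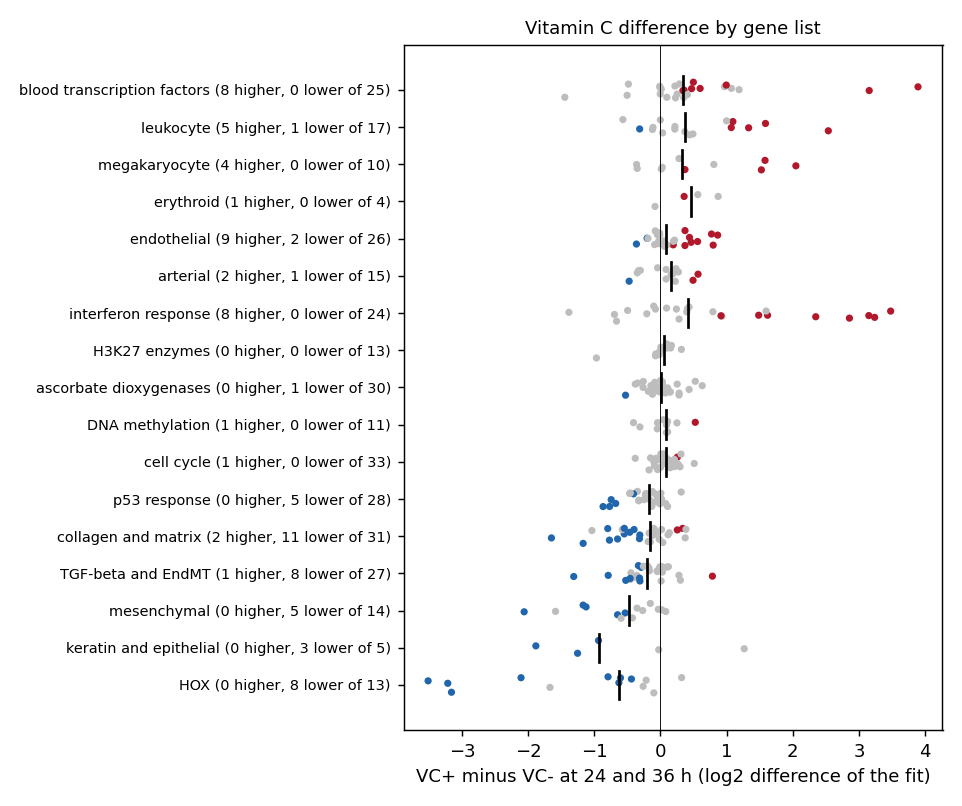
Log2 difference of VC+ minus VC- for every tested member of 17 gene lists, 1 point per gene, with genes called higher in red, called lower in blue and not called in grey, and a black bar at the median of the list. The HOX list has its median at -0.63 and the blood transcription factor list at 0.34, while the H3K27 enzymes and the ascorbate dioxygenases stand near 0.

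Cardiac genes, whose progenitors are mesodermal neighbours of endothelium, had 3 members lower and 2 higher, and DESeq2 called 2 lower and 0 higher. The heart actin ACTC1 (-1.004 ± 0.13) and the factors GATA4 (-0.88 ± 0.12) and HAND1 (-1.44 ± 0.24) were lower, and NKX2-5 (0.83 ± 0.14) and MEF2C (0.36 ± 0.09) higher, of 9 tested. NKX2-5 stood at 45.2 and 41.0 CPM in VC+ and at 21.6 and 26.6 CPM in VC-, whereas HAND1 stood at 7.72 and 5.21 CPM in VC+ and at 20.5 and 14.4 CPM in VC-.

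Of 29 Wnt pathway genes, 4 were lower and 1 higher, and DESeq2 called 1 lower and 0 higher. RSPO2, a secreted Wnt agonist, had the largest fall among genes of at least 5 CPM in the higher condition, with 4 and 0 reads in VC+ and 41 and 42 reads in VC- (-4.13 ± 0.75, adjusted p = 0.00312). The receptors LRP5 (-1.48 ± 0.33) and FZD8 (-0.70 ± 0.18) and the inhibitor DKK1 (-1.26 ± 0.33) fell, and the ligand WNT5B rose, at 4.35 and 9.09 CPM in VC+ and at 1.70 and 1.93 CPM in VC- (1.83 ± 0.44, adjusted p = 0.0234).

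Of 22 tested angiogenic genes 4 were higher and 5 lower, and DESeq2 called 2 higher and 4 lower. ANGPT2, which loosens vessels, stood at 44.4 and 71.8 CPM in VC+ and at 78.5 and 199 CPM in VC- (-1.18 ± 0.13, adjusted p = 5.66e-05). APLN, the apelin peptide of sprouting tip cells, stood at 304 and 211 CPM in VC+ and at 510 and 340 CPM in VC- (-0.72 ± 0.07, adjusted p = 1.16e-05). ESM1, another tip cell gene, went the other way, at 386 and 283 CPM in VC+ and at 329 and 145 CPM in VC- (0.59 ± 0.12, adjusted p = 0.00716). HGF, a growth factor, had 0 and 1 read in VC+ and 80 reads over both libraries in VC-, which was 70.4-fold higher in VC- with a 95% counting interval of 12.3 to 2814. The growth factor PDGFA rose (1.03 ± 0.15, adjusted p = 0.000417) and the chemokine scavenger ACKR3 fell (-1.74 ± 0.30, adjusted p = 0.0022).

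Among p53 targets 5 of 28 were lower and none higher, with 1 lower by DESeq2 and 3 with the spread of 8 libraries. CDKN1A, the cell cycle inhibitor p21, stood at 89.6 and 106 CPM in VC+ and at 149 and 208 CPM in VC- (-0.87 ± 0.10, adjusted p = 4.87e-05), and PERP (-0.77 ± 0.14), PHLDA3 (-0.74 ± 0.15), GDF15 (-0.68 ± 0.18) and TP53INP1 (-0.41 ± 0.11) fell with it. Of 33 cell cycle genes only cyclin D1, CCND1, was called (0.26 ± 0.06, adjusted p = 0.0185), a call lost in both of those fits, and the list's median was 0.078. The replication genes MCM3 (0.26 ± 0.08, adjusted p = 0.0960) and MCM6 (0.31 ± 0.10, adjusted p = 0.101) were not called.

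Few genes of enzymes that use vitamin C, or that act beside them, were called, against 5.06% of all genes tested. With lists this small, such counts do not set these genes apart from all genes. None of 13 genes for methylation of histone H3 at lysine 27 was called. The demethylases KDM6A, at 34.0 and 36.7 CPM in VC+ and at 40.1 and 34.5 CPM in VC- (-0.07 ± 0.13, adjusted p = 0.852), and KDM6B (-0.07 ± 0.11, adjusted p = 0.829) overlapped between the conditions, and EZH2, the methyltransferase that opposes them, had a log2 difference of 0.32 ± 0.11 (adjusted p = 0.114). None of these tests shows that the levels were equal. TET1 (0.09 ± 0.21), TET2 (0.11 ± 0.14) and TET3 (0.25 ± 0.13) were not called. Of 11 genes of DNA methylation UHRF1, which recruits the maintenance methyltransferase, was higher, at 141 and 126 CPM in VC+ and at 109 and 77.9 CPM in VC- (0.53 ± 0.10, adjusted p = 0.00631), though not called with DESeq2. Of 30 listed ascorbate-dependent dioxygenases only ASPH, which hydroxylates aspartate, was called (-0.53 ± 0.10, adjusted p = 0.00312). The list does not hold P4HA2, the collagen enzyme subunit that was called lower above.

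The vitamin C transporter SLC23A2 stood at 45.4 and 44.8 CPM in VC+ and at 50.4 and 42.4 CPM in VC- (-0.04 ± 0.12, adjusted p = 0.921). The glucose transporter SLC2A1, which also carries oxidised vitamin C, was the only one of 11 transport and recycling genes called, at 225 and 206 CPM in VC+ and at 353 and 297 CPM in VC- (-0.59 ± 0.07, adjusted p = 0.000147). It is also a target of hypoxia, and of 33 hypoxia and glycolysis genes ENO2 (-0.55 ± 0.12), PFKP (-0.31 ± 0.08) and GAPDH (-0.19 ± 0.05) fell beside it. EPAS1, which encodes the hypoxia factor HIF-2alpha, rose (0.49 ± 0.10, adjusted p = 0.00575). DESeq2 called 1 of these 33 lower and 0 higher. None of 18 oxidative stress genes was called.

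The remaining lists are given beside 2.08% higher and 2.97% lower among all genes tested. Of 19 lipid genes CETP and the triglyceride lipase LPL (0.66 ± 0.15, adjusted p = 0.0156) were higher, and the endothelial lipase LIPG (-1.06 ± 0.14), the sterol regulator INSIG1 (-0.59 ± 0.10), the desaturase SCD (-0.32 ± 0.06) and the prostaglandin enzyme PTGS1 (-0.69 ± 0.18) lower. Of 17 genes of flow response and of the immediate early factor AP-1, FOSB (0.95 ± 0.20), FOS (0.49 ± 0.12) and the phosphatase DUSP1 (0.38 ± 0.11) were higher and DUSP6, which shuts down ERK kinases, lower (-0.42 ± 0.07). MT-CO2, a subunit of cytochrome oxidase, was the only one of 13 respiratory chain genes called (-0.16 ± 0.04, adjusted p = 0.0386). None of 3 tested pluripotency genes was called.

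Several of the largest differences lay outside the lists. The receptor GPR182, found on endothelium, stood at 5.79 and 6.42 CPM in VC+ and at 0.261 and 0.455 CPM in VC- (4.02 ± 0.58, adjusted p = 0.000544). NAT8L, which makes N-acetylaspartate (2.55 ± 0.46), the lipid transfer protein CETP (2.21 ± 0.40) and the microtubule protein MTUS1 (1.97 ± 0.43) were also among the 12 largest rises. Of the 12 largest falls, RSPO2, HOXA9 and HOXA11 are given above. The amino acid transporter SLC7A8 stood at 2.58 and 2.91 CPM in VC+ and at 13.1 and 27.9 CPM in VC- (-2.89 ± 0.29, adjusted p = 2.03e-05), and the secreted protein SCUBE1 at 1.13 and 0.606 CPM in VC+ and at 10.6 and 7.05 CPM in VC- (-3.35 ± 0.46, adjusted p = 0.000364). PARM1 (-3.67 ± 0.60), TMEM35A (-3.33 ± 0.55), KLHL14 (-2.95 ± 0.55), CRTAC1 (-2.94 ± 0.43), the protease PAPPA (-2.94 ± 0.60) and ALDH1A3, which makes retinoic acid (-3.14 ± 0.66), were the others, with the elongation factor EEF1D (-2.83 ± 0.25). EEF1D stood at 4.99 and 2.79 CPM in VC+ and at 26.5 and 26.8 CPM in VC-, but at 23.5 CPM in VC+ and 3.88 CPM in VC- at 0 h and at 20.8 and 4.66 CPM at 60 h, so its sign changed over the course. Genes with the smallest p, chosen after their values were seen, included the matrix protease MMP9 (-1.28 ± 0.08) and the endothelial and myeloid receptor CD93 (0.95 ± 0.07).

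**Figure D4:**
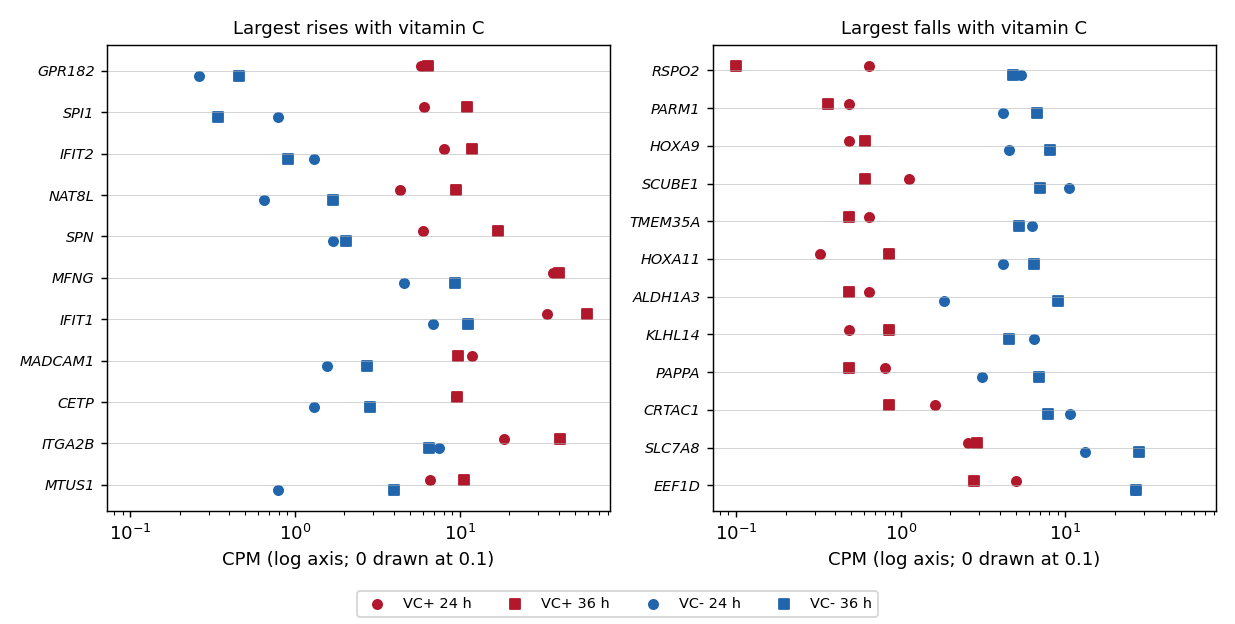
Level in CPM (log axis, 0 drawn at 0.1) of 11 of the 12 genes with the largest rises and of the 12 with the largest falls, for VC+ (red) and VC- (blue) at 24 h (circles) and 36 h (squares), 1 library per point. SPI1 stands at 6.12 and 11.0 CPM in VC+ and at 0.784 and 0.341 CPM in VC-, and HOXA9 at 0.483 and 0.606 CPM in VC+ and at 4.57 and 8.07 CPM in VC-.

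The 2 hours differed for some genes. Over all genes tested, 60.5% had the same sign at 24 and 36 h. Of the 752 called genes, 39 had log2 ratios that differed by more than 1 between the hours. SPI1, SPN and ITGA2B were among those with the larger ratio at 36 h, SPN at 1.55 at 24 h and 2.80 at 36 h. ALDH1A3 had a ratio of -1.03 at 24 h and -3.27 at 36 h, and MTUS1 one of 2.47 at 24 h and 1.32 at 36 h. With 1 library per condition and hour these gaps have no replicate.

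The early differences were then set beside the pair of libraries at 0 h, before re-plating, which share no library with them. Of the genes called higher at 24 and 36 h, 77.7% were also higher with vitamin C at 0 h, and of those called lower 73.3% were also lower, against 56.3% with an unchanged sign among genes not called. The difference between the vitamin C effects at 24 and 36 h and at 0 h was tested by itself and passed for 278 of 17315 genes (1.61%), 131 (0.757%) with a more positive effect at 24 and 36 h and 147 (0.849%) with a more negative one. There is 1 pair at 0 h, so the spread of this test comes from the later hours. Leaving out the VC+ library of 24 h or of 36 h, or the VC- library of 24 h or of 36 h, left 105, 95, 166 and 133 calls.

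Of the 15 arterial genes tested, 5 had a more negative effect at 24 and 36 h than at 0 h and none a more positive one. EFNB2, the arterial ephrin ligand, stood at 296 CPM in VC+ and 87.8 CPM in VC- at 0 h, and at 630 and 780 CPM in VC+ and 511 and 736 CPM in VC- at 24 and 36 h (difference of log2 effects -1.55 ± 0.14, adjusted p = 4.63e-07). GJA4 stood at 276 CPM in VC+ and 137 CPM in VC- at 0 h, and its sign was opposite at 24 and 36 h (-1.46 ± 0.17, adjusted p = 2.08e-05). CXCR4, the receptor for the chemokine CXCL12, stood at 27.6 CPM in VC+ and 8.66 CPM in VC- at 0 h, and at 58.3 and 130 CPM in VC+ and 75.5 and 162 CPM in VC- at 24 and 36 h (-2.00 ± 0.24, adjusted p = 2.69e-05). DLL4 (-0.80 ± 0.18, adjusted p = 0.0186) and the netrin receptor UNC5B (-0.68 ± 0.14, adjusted p = 0.0116) were the others. DESeq2 called neither of these, UNC5B was lost without any 1 of the 4 early libraries, and DLL4 was lost without the VC+ library of 24 h or 36 h or the VC- library of 36 h. In VC- the levels of EFNB2, GJA4 and CXCR4 at 24 h were above those at 0 h, and GJA4 and CXCR4 then stood above VC+.

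The endothelial genes CLDN5 (-2.22 ± 0.30), PLVAP (-1.01 ± 0.19) and CD34 (-0.65 ± 0.11) also had smaller effects at 24 and 36 h, though VC+ was above VC- at both hours. At 60 h PLVAP stood at 2339 CPM in VC+ and 2701 CPM in VC-. The CD34 call was lost without any 1 of the 4 early libraries, and the PLVAP call was lost with DESeq2 and without either library of 36 h. The cation channel KCNK17 (-2.47 ± 0.23), the transporter SLC45A4 (-2.34 ± 0.19), the death ligand TNFSF10 (-2.90 ± 0.34) and the endothelial guanine exchange factor ARHGEF15 (-2.48 ± 0.28) were among the 12 with the smallest p. SLC7A8 was slightly higher in VC+ at 0 h, at 13.2 CPM in VC+ and 9.44 CPM in VC-, and far lower in it by 24 h (-3.38 ± 0.40, adjusted p = 2.36e-05).

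Other effects were more positive at 24 and 36 h than at 0 h. Every gene named in this paragraph stood lower in VC+ than in VC- at 0 h, which is part of the change. TFRC, for example, stood at 34.9 CPM in VC+ and 64.0 CPM in VC- at 0 h, while its effect at 24 and 36 h was 0.36. SELE stood at 33.4 CPM in VC+ and 46.5 CPM in VC- at 0 h, and its effect at 24 and 36 h was larger by 2.28 ± 0.23 (adjusted p = 3.64e-06). ITGB3 stood at 1.38 CPM in VC+ and 7.50 CPM in VC- at 0 h (4.02 ± 0.61, adjusted p = 0.000529), ITGA2B at 12.1 CPM in VC+ and 13.8 CPM in VC- (2.27 ± 0.39, adjusted p = 0.0017), and THBS1 at 23.8 CPM in VC+ and 77.4 CPM in VC- (2.09 ± 0.22, adjusted p = 3.64e-06). GATA1 (5.08 ± 1.14, adjusted p = 0.0182), CBFA2T3 (1.39 ± 0.32, adjusted p = 0.0205), TFRC (1.25 ± 0.23, adjusted p = 0.00343) and the growth factor PDGFA (2.53 ± 0.40, adjusted p = 0.000766) also had more positive effects at the early hours. CBFA2T3 lost this call with DESeq2 and without any 1 of the 4 early libraries, and GATA1 lost it with 6 libraries and without the VC+ library of 24 h or either library of 36 h. The calls of ITGA2B, without either library of 36 h, and of TFRC, without the VC+ library of 36 h, were lost too. Of 17 genes of flow response and of AP-1, 9 had a more positive effect at 24 and 36 h and none a more negative one, among them FOS, at 285 CPM in VC+ and 442 CPM in VC- at 0 h (1.15 ± 0.20, adjusted p = 0.00172, lost without the VC+ library of 24 h), and FOSB (1.70 ± 0.25, adjusted p = 0.000409). The receptor OPRL1 (5.56 ± 0.63) and the mitochondrial ribosomal RNA gene MT-RNR2 (0.90 ± 0.09) complete the 12 with the smallest p. MT-RNR2 stood at 2302 CPM in VC+ and 4021 CPM in VC- at 0 h. It was not called at 24 and 36 h (0.07 ± 0.05, adjusted p = 0.553).

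For keratin, HOX and fringe genes no such change was found. KRT8 differed in its effect by 0.03 ± 0.14 between the early hours and 0 h (adjusted p = 0.993), HOXB9 by 0.07 ± 0.17 (adjusted p = 0.967) and MFNG by 0.58 ± 0.39 (adjusted p = 0.737), and all 3 already differed between the conditions at 0 h in the same direction. No tested member of the HOX, epithelial or interferon list passed this test. ISG15 stood at 26.4 CPM in VC+ and 20.6 CPM in VC- at 0 h (1.28 ± 0.35, adjusted p = 0.0712). Genes outside these lists are not covered by this statement. A miss of the threshold does not show that the effects were equal.

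**Figure D5:**
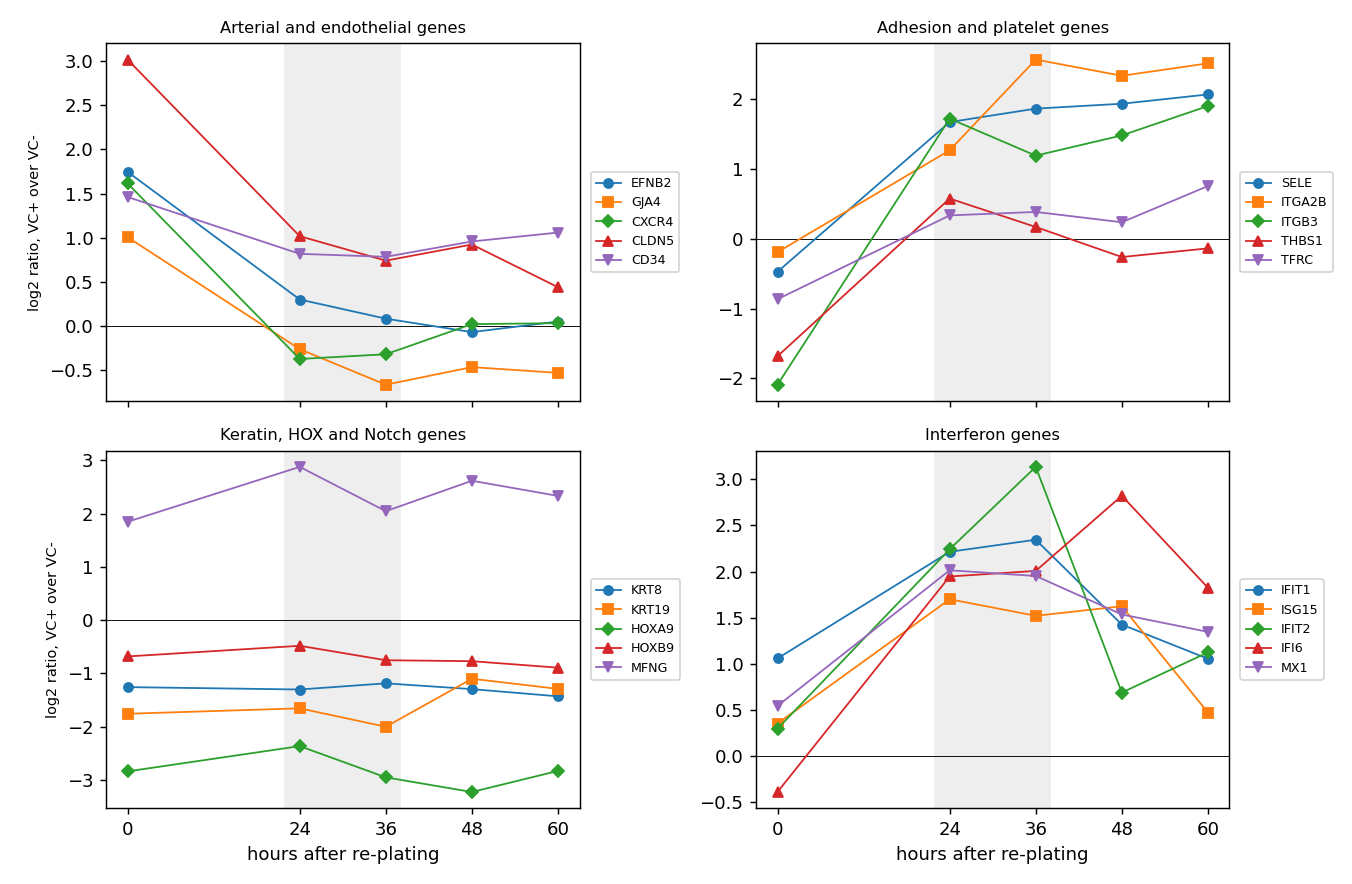
Log2 ratio of VC+ over VC- (0.5 CPM added) at 0, 24, 36, 48 and 60 h after re-plating for 20 genes in 4 panels, 1 pair of libraries per point, with 24 and 36 h shaded. EFNB2, GJA4 and CXCR4 stand above 1 at 0 h and below 0.5 at each later hour, SELE, ITGA2B and ITGB3 start below 0 and lie above 1 from 24 h on, and KRT8, HOXA9 and MFNG hold their sign throughout.

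The later pairs at 48 and 60 h, which share no library with the early ones, had the same sign for 89.0% of the early rises at each hour and for 87.8% and 88.5% of the early falls, against 56.2% and 61.6% of genes not called. Tested by itself, the difference between the early and the later vitamin C effect passed for 2 of 15602 genes (0.0128%), with 926 at an unadjusted p under 0.05. These were APLNR, the apelin receptor, and VAMP7. APLNR stood at 188 and 253 CPM in VC+ and at 173 and 195 CPM in VC- at 24 and 36 h, and at 133 and 134 CPM in VC+ and 54.8 and 53.8 CPM in VC- at 48 and 60 h (-1.03 ± 0.15, adjusted p = 0.033). The gap between VC+ and VC- was thus small at the early hours and larger at the later ones. VAMP7, a vesicle fusion protein, had 53.4 CPM in the VC+ library of 60 h, while each other library of the course held 5.91 CPM or less, and its call was lost without that library, without either library of 36 h and with DESeq2. The APLNR call was lost without the VC+ library of 24 h or 36 h or the VC- library of 24 h. Leaving out 1 library of the 8 gave between 8 and 124 calls, so which genes pass here rests on single libraries.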

How the data were processed

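RNA was read by sequencing in 17 libraries, 4 of which form the comparison. Per the labels' protocols, Trizol was used to extract RNA and a TruSeq RNA kit to build libraries. For 13 libraries, these 4 included, the authors deposited raw read counts of 58302 gene IDs. Per the submitters' processing notes, the tools were HTSeq 0.6.0, HISAT2 2.0.4, DESeq 1.18.1 and SAMtools 1.3.1, on hg38 (GRCh38). Whether counting used strand is not given in the sources used here.

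Gene names were found for 57532 IDs, and positions are those of GENCODE 29, which holds 58039 of them. Counts were tested with edgeR 4.0.16 (R 4.3.3) by the quasi-likelihood F test, with TMM scaling, the filterByExpr filter, terms for time point and vitamin C, and Benjamini-Hochberg adjustment at 0.05. The differences from 0 h and from 48 and 60 h are contrasts in fits of 10 and 8 libraries. Levels are CPM of the library total, and ratios of single pairs add 0.5 CPM. On simulated counts of the 4 libraries, the test recovered 23.5%, 77.5% and 96% of 200 genes changed 1.5-, 2- and 4-fold, with 1, 10 and 10 false calls. Every simulated gene had the same spread and a mean that did not change between hours. Recovery and false calls in the measured libraries may therefore differ. Alternatives were DESeq2 1.42.0, other scalings and filters, no time term, a spread from more libraries and leaving out single libraries. The 4 sorted libraries were not used.

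A few genes that the naming rule takes are not reported here. The text names the 12 largest rises and falls among called genes whose sign was the same at both hours and whose mean reached 5 CPM in 1 condition, the 12 smallest p of each difference between times, a set of known regulators, and the 5 members with the smallest p per list. Further list members were named after their values were seen, as were EPCAM, CLDN6, ICAM1 and the genes so marked. The comparison and the gene lists were chosen with earlier results of these data known. Promoter sequences are RefSeq's.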

Additional observations from a re-analysis of the deposited data

Results flagged for a closer look

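These results are listed because the vitamin C effect at 24 and 36 h differed, by a test of the difference itself, from the effect at another time. Against 48 and 60 h, the effect was lower by -1.03 (log2) for APLNR and by -9.81 for VAMP7.

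Against 0 h, the difference of log2 effects among arterial genes was -1.55 for EFNB2, -1.46 for GJA4, -2.00 for CXCR4, -0.80 for DLL4 and -0.68 for UNC5B. Among other endothelial genes it was -2.22 for CLDN5, -1.01 for PLVAP, -0.65 for CD34 and -2.48 for ARHGEF15. It was -2.47 for KCNK17, -2.34 for SLC45A4, -2.90 for TNFSF10 and -3.38 for SLC7A8.

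Effects that were more positive at 24 and 36 h than at 0 h were those of SELE (2.28), ITGB3 (4.02), ITGA2B (2.27), THBS1 (2.09), GATA1 (5.08), CBFA2T3 (1.39), TFRC (1.25), PDGFA (2.53), FOS (1.15), FOSB (1.70), OPRL1 (5.56) and MT-RNR2 (0.90). GATA1 rested on few reads at 0 h, at 0.230 CPM in VC+ and 0.905 CPM in VC-. All of these genes stood lower in VC+ than in VC- at 0 h, where there is 1 library per condition.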

How the results depend on the processing

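Each group of the comparison has 1 library, so the calls rest on the shared spread of genes. The fit as reported pairs VC+ and VC- within each hour through the time point. No paired analysis was possible by replicate number, because the labels of the time course carry none. The count of 752 genes became 225 with DESeq2, 48 without the time block and 244 with a 2-fold minimum, and leaving out 1 library gave 112 to 146 in the 8-library fit and 76 to 377 without the block. DESeq2 size factors (746), upper-quartile scaling (983), no filter (1000), a minimum of 5 CPM (811) and a spread from 8 (502) or 10 libraries (581) kept the count within 1.5 times. Of 138 named genes that were called, 106 stayed called with the spread of 8 libraries and 62 of 137 with DESeq2, against 19 of 138 without the time block and, when 1 library was left out, 32 to 43 in the 8-library fit and 22 to 67 without the block. The 2 calls of the difference from 48 and 60 h became 1 with DESeq2 and 104 with no filter, and 8 to 124 when 1 library was left out. The 278 calls of the difference from 0 h became 86 with DESeq2, 531 with 6 libraries, and 95 to 608 when 1 library was left out. Fewer libraries enter some of these fits; the cause of the other changes was not tested.

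Signs turned when single libraries were left out for PLVAP (-0.014 to 0.94), TP53INP1 (-0.78 to 0.051), CCND1 (-0.20 to 0.68), LPL (-0.19 to 1.73) and FOS (-0.25 to 1.39), in each case without the time block. They also turned for genes that were not called: GATA2 (-0.27 to 0.24, and 0.00045 with the spread of 8 libraries), PECAM1 (-0.23 to 0.067), CLDN6 (-0.65 to 0.76), KDM6A (-0.23 to 0.096), KDM6B (-0.27 to 0.14), TET1 (-0.13 to 0.32), TET2 (-0.17 to 0.41) and SLC23A2 (-0.15 to 0.084). The differences from 0 h of KRT8 (-0.032 to 0.083) and HOXB9 (-0.060 to 0.22) did so as well.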
